A study of Mus musculus with 6 samples.

Results

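Nonsense-mediated decay (NMD) is the surveillance pathway that removes mRNAs on which the ribosome terminates too early. The helicase UPF1 is its central factor. UPF2 and the paralogs UPF3A and UPF3B link UPF1 to the exon junction complex left on spliced mRNA, the kinase SMG1 with its partners SMG8 and SMG9 phosphorylates UPF1, and SMG5 and SMG6 act on the phosphorylated protein, SMG6 as an endonuclease that cuts the target. Transcripts of 9 genes of this pathway, Upf1, Upf2, Upf3a, Upf3b, Smg1, Smg5, Smg6, Smg8 and Smg9, were chosen by their symbols among the 24255 genes of an RNA-Seq table of mouse oocytes. All 9 were listed in it. Of them, 5 (Upf1, Upf2, Upf3b, Smg6 and Smg8) reached 1 FPKM in at least 1 library and were tested, and 4 (Upf3a, Smg1, Smg5 and Smg9) did not.

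The cells were fully-grown oocytes (FGOs) with an intact germinal vesicle (GV stage), that is, oocytes that have stopped growing but not yet resumed the first meiosis. They came from wild type (WT) females and from females homozygous for Lsm14b tm1a(KOMP)Mbp, an insertion carrying a reporter that disrupts the gene of the RNA-binding protein LSM14B in every cell (Lsm14b-KO). Both groups were on the C57BL/6J background and received 5 IU of PMSG, a hormone that stimulates follicles to grow, 46 h before oocyte collection. Each of 3 WT and 3 Lsm14b-KO libraries was made from 20 oocytes by Smart-seq2, a method that amplifies the cDNA of a few cells. The age of the females was not given in the sources used here. The sources also do not say whether the 3 libraries of a group came from separate females, so the p-values measure only the spread between these libraries.

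Expression was given as FPKM, the number of sequenced fragments scaled to transcript length and to the depth of the library. This scaling is meant to let levels be set side by side between genes. Whether reads covered long transcripts evenly was not tested. Depth, estimated from the value that 1 fragment is worth at the low end of each library, was 3610000 to 4120000 fragments in WT and 4810000 to 7770000 fragments in Lsm14b-KO libraries. Lsm14b-KO replicate 1 stood closer to the WT libraries than to the other Lsm14b-KO libraries in its FPKM sum, which was 1029730 against 564671 and 676656 in replicates 2 and 3 and 1141320 to 1244180 in WT. Lsm14b itself was listed at 2.77, 3.98 and 1.72 FPKM in WT and at 0, 0 and 0.102 FPKM in the Lsm14b-KO libraries. All 10 oocyte markers were tested and none passed the threshold in limma, although their summed level spread more widely in Lsm14b-KO (31871 to 79626 FPKM) than in WT (49404 to 61487 FPKM). This depended on Lsm14b-KO replicate 1. Without that library 47% of all tested genes passed. Zp1, Zp2, Zp3, Bmp15 and Nlrp5 then passed as higher and Oosp1 as lower (adjusted p 0.00349 to 0.0229 in limma), and the other oocyte markers did not pass. Of 13 cumulus and granulosa cell markers, 6, among them Amh and Foxl2, were listed at 0 in every library. The list summed to 9.73 to 13.5 FPKM in WT and 6.13 to 10.1 FPKM in Lsm14b-KO libraries, with Cyp19a1 the largest part in each. Of the 3 tested, Cyp19a1 was lower in Lsm14b-KO (log2 fold change -0.98, adjusted p = 0.0426 in limma), and Fshr (0.73, adjusted p = 0.0923) and Inha (0.38, adjusted p = 0.301) were fitted higher without passing; their part in the results was not tested. Red blood cell markers were listed at 0 throughout, and the white blood cell markers summed to at most 0.673 FPKM in WT and 0.728 FPKM in Lsm14b-KO libraries.

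NMD factor mRNAs were of low to moderate abundance in WT FGOs and spanned a wide range. Upf2 was the most abundant, at 4.65 ± 0.94 FPKM (SD, n = 3), followed by Upf1 at 3.04 ± 1.28 (SD, n = 3) and Upf3b at 2.11 ± 0.49 (SD, n = 3). The WT ranges of Upf2 and Upf1 overlapped, as did those of Upf1 and Upf3b, whereas all 3 Upf2 values lay above all 3 Upf3b values. Smg8 (1.25 ± 0.30, SD, n = 3), Smg6 (0.621 ± 0.133, SD, n = 3) and Smg1 (0.181 ± 0.047, SD, n = 3) followed, each with a range below that of the gene before it. In FPKM the kinase Smg1 was thus far lower than its partner Smg8 in each library, while the other partner, Smg9, was listed at 0 in every one. The gap between Smg1 and Smg8 rests largely on the scaling to transcript length, 15557 nt for Smg1 and 3218 nt for Smg8. In estimated fragments per WT library, Smg1 had 7.36 to 12.96 and Smg8 12.9 to 18.9. Upf3a and Smg5 were listed above 0 in only 4 and 2 of the 6 libraries.

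**Figure D1:**
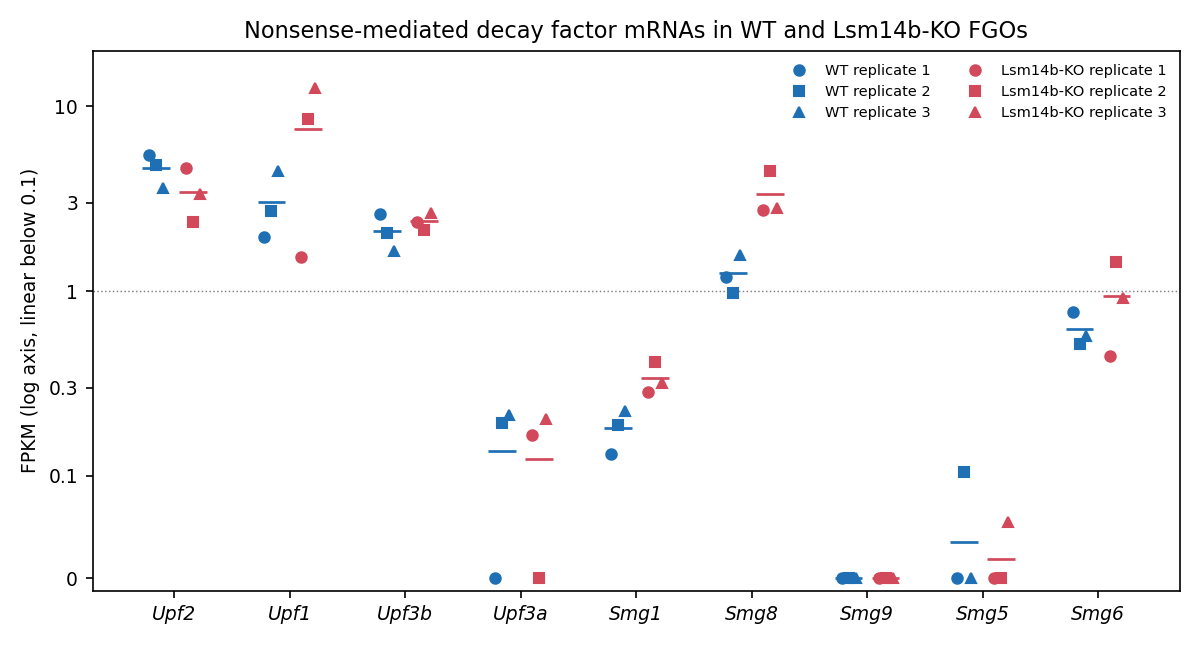
FPKM of the 9 NMD factor genes in each of the 6 libraries, on an axis that is logarithmic above 0.1 and linear below it; points are libraries, short bars are group means and the dotted line marks 1 FPKM. Smg8 and, at a lower level, Smg1 are the genes whose 3 Lsm14b-KO points all lie above the 3 WT points, and for Upf1 Lsm14b-KO replicates 2 and 3 lie above all other libraries while replicate 1 lies below them.

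In Lsm14b-KO FGOs, Upf1 had the highest mean, 7.57 ± 5.60 FPKM (SD, n = 3), but its range overlapped with that of Upf2 (3.46 ± 1.15 FPKM, SD, n = 3). Smg8 reached 3.35 ± 0.97 FPKM (SD, n = 3), with a range that overlapped with Upf2 and lay above Upf3b (2.38 ± 0.25 FPKM, SD, n = 3). In WT the order of Smg8 and Upf3b was the opposite, with all 3 Upf3b values above all 3 Smg8 values. Smg6 (0.937 ± 0.500 FPKM, SD, n = 3) and Smg1 (0.338 ± 0.066 FPKM, SD, n = 3) again stood below these genes.

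Which NMD factor mRNAs differed between WT and Lsm14b-KO FGOs was then examined. Of the 5 tested members 1, Smg8, passed an adjusted p of 0.05 in limma, and it was higher in Lsm14b-KO. Across the 6398 genes tested, 1383 passed (21.6%), with 408 genes (6.38%) up and 975 genes (15.2%) down in Lsm14b-KO, so that 1 of 5 is close to the share over all genes. At an unadjusted p under 0.05 the member count was also 1, with 39.4% of all tested genes. The median fitted log2 fold change of the 5 members was 0.23, with 4 fitted higher and 1 lower, beside -0.08 over all tested genes. That median is the value of Smg6, which was tested only through Lsm14b-KO replicate 2 and was fitted lower after the length and GC correction, so nothing is read from it. Fold changes here are on the log2(FPKM + 1) scale, which compresses the change of weakly expressed genes, and in these pooled oocytes a change in transcript number per cell and a change in the RNA recovered cannot be told apart.

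**Figure D2:**
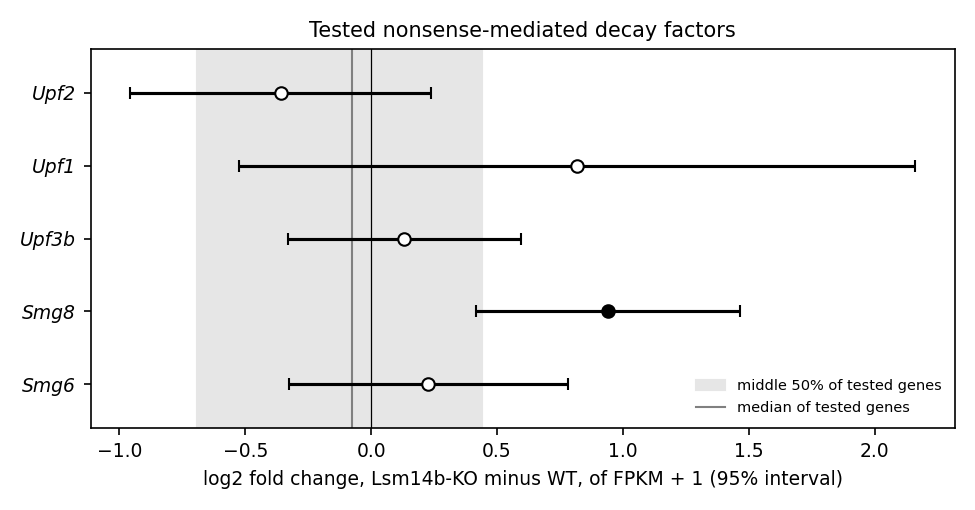
Fitted log2 fold change (Lsm14b-KO minus WT, log2(FPKM + 1) scale) of the 5 tested NMD factor genes with 95% intervals from limma; the filled point has an adjusted p under 0.05 over all tested genes, the grey band spans the middle 50% of tested genes and the grey line is their median of -0.08. The interval of Smg8 (0.42 to 1.46) lies above 0, and those of the other 4 genes include 0.

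The central helicase Upf1 differed most in its spread. It was listed at 1.97, 2.70 and 4.46 FPKM in WT replicates 1, 2 and 3, and at 1.53, 8.58 and 12.6 FPKM in the Lsm14b-KO libraries. Lsm14b-KO replicates 2 and 3 were above every WT library, whereas replicate 1 was the lowest of all 6. The fitted log2 fold change was 0.82 (SE 0.58, 95% interval -0.52 to 2.16, adjusted p = 0.313 in limma). Once Lsm14b-KO replicate 1 was left out, the estimate was 1.54 (adjusted p = 0.00323, limma), in a fit where 47% of all tested genes passed. In rank, Upf1 stood above 35.9% of the tested genes in Lsm14b-KO replicate 1 and above 71.4% and 76.1% in replicates 2 and 3, against 41.8%, 49.1% and 58.4% in the WT libraries.

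Upf2, the adaptor between UPF1 and the UPF3 proteins, was fitted lower. Its levels were 5.47, 4.84 and 3.63 FPKM in WT and 4.66, 2.36 and 3.35 FPKM in Lsm14b-KO libraries, and the groups overlapped. The log2 fold change was -0.36 (SE 0.26, 95% interval -0.96 to 0.24, adjusted p = 0.319 in limma). This direction depended on scaling. With each library scaled to the same FPKM sum it was 0.19, a scaling that raised the median of all genes by 0.48, and relative to that median Upf2 was at -0.21 there and at -0.28 as deposited.

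The 2 UPF3 paralogs, which compete for UPF2, were expressed unequally. Upf3b, on the X chromosome, was listed at 2.62, 2.06 and 1.65 FPKM in WT and at 2.36, 2.15 and 2.64 FPKM in Lsm14b-KO libraries, with overlapping groups and the smallest fitted change of the 5 tested members (log2 fold change 0.13, SE 0.20, 95% interval -0.33 to 0.59, adjusted p = 0.634 in limma). Upf3a was listed at 0, 0.193 and 0.214 FPKM in WT and at 0.166, 0 and 0.203 FPKM in Lsm14b-KO libraries. Each value of Upf3a above 0 rests on an estimated 1.64 to 3.24 fragments, against 14.4 to 48.1 fragments for Upf3b. A listed 0 can also be an estimate that failed, so that neither absence nor a change of Upf3a can be read from these libraries. The log2 ratio of Upf3b to Upf3a within a library, with 1 FPKM added to both, averaged 1.45 in WT and 1.59 in Lsm14b-KO. The difference was 0.15 (p = 0.6 in a two-sided exact permutation test, n = 3 per group, smallest possible p 0.1). Since the added 1 FPKM exceeds every value of Upf3a, this ratio mostly repeats Upf3b. It cannot test the balance of the 2 paralogs.

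Smg8, a regulatory partner of the SMG1 kinase, was the only tested member called with all libraries, as higher in Lsm14b-KO. It was listed at 1.19, 0.972 and 1.57 FPKM in WT replicates 1, 2 and 3. In the Lsm14b-KO group it was listed at 2.76, 4.47 and 2.83 FPKM. Each Lsm14b-KO library was above each WT library, as was the case for 19.1% of all tested genes. The mean was 2.69 times that of WT. The log2 fold change was 0.94 (SE 0.23, 95% interval 0.42 to 1.46, adjusted p = 0.0259 in limma). Unlike Upf1, Smg8 was raised in Lsm14b-KO replicate 1 too, and its rank moved from above 23.7% to 36.7% of tested genes in WT to above 51.0% to 61.1% in Lsm14b-KO libraries. These values rest on an estimated 12.9 to 18.9 fragments per WT library and 42.7 to 101 per Lsm14b-KO library. The call was lost when any library other than Lsm14b-KO replicate 1 was left out: the adjusted p in limma was 0.0938, 0.102 and 0.0570 without WT replicates 1, 2 and 3, and 0.0587 and 0.0803 without Lsm14b-KO replicates 2 and 3, with log2 fold changes of 0.76 to 1.04 over the 6 omissions. The FPKM of Smg8 was assigned in a deposited locus that it shares with 15 other genes.

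**Figure D3:**
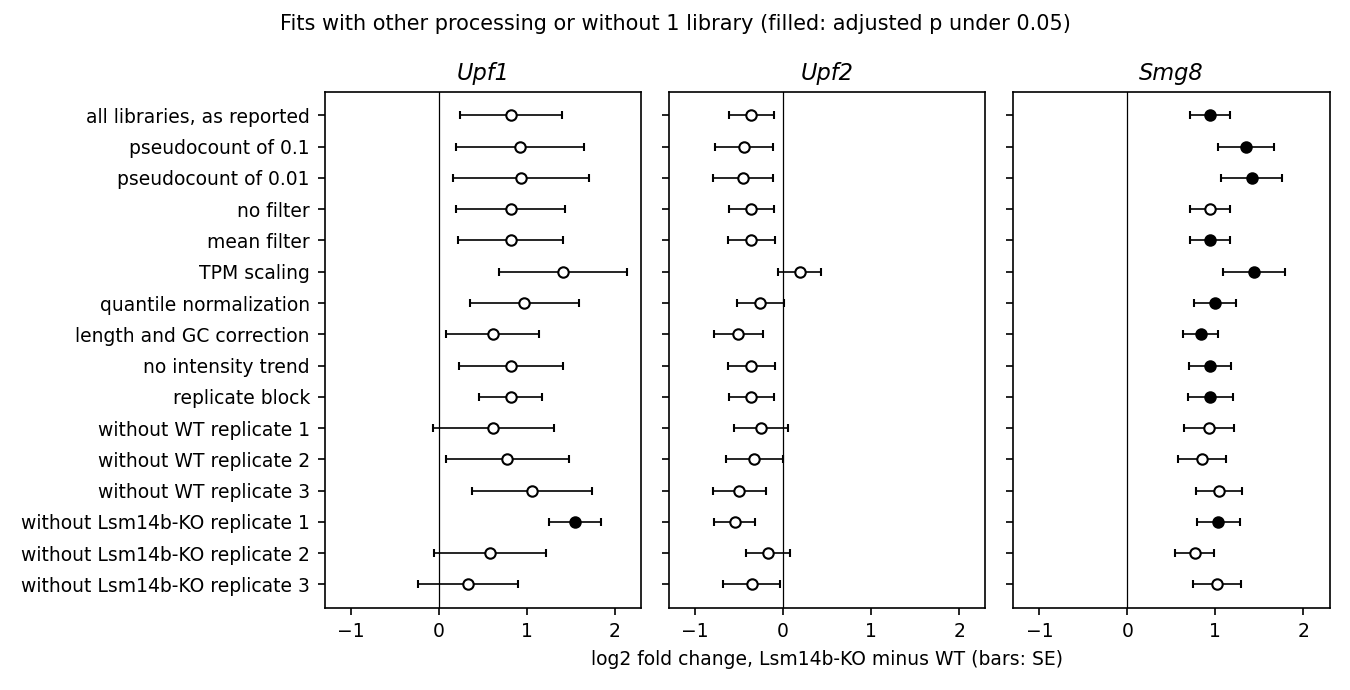
Fitted log2 fold change of Upf1, Upf2 and Smg8 (Lsm14b-KO minus WT; bars are the SE) with all libraries as reported, under other processing, and with each library left out; filled points have an adjusted p under 0.05 in limma. Smg8 stays above 0 in every fit but is called in 10 of the 16, Upf1 is called only without Lsm14b-KO replicate 1, and Upf2 crosses 0 only when each library is scaled to the same sum.

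The kinase Smg1 itself was too low for the test. Its FPKM was 0.131, 0.187 and 0.223 in WT and 0.285, 0.412 and 0.318 in Lsm14b-KO libraries. The groups did not overlap, and the Lsm14b-KO mean was 1.87 times the WT mean, from an estimated 7.36 to 12.96 fragments per WT library and 21.3 to 45.0 per Lsm14b-KO library along a transcript of 15557 nt. With the minimum level removed its fitted change was 0.18 on the log2 scale (adjusted p = 0.289, limma), a value compressed by the added 1 FPKM. Among the 8 members listed above 0 in some library, Smg1 and Smg8 were the ones whose groups did not overlap, both with Lsm14b-KO above WT. Of all 14325 genes listed above 0, 28.4% had groups that did not overlap and 14.5% had Lsm14b-KO above WT. Among the 6398 tested genes, which include Smg8 but not Smg1, these shares were 45% and 19.1%. Smg9, the other SMG1 partner, was listed at 0 in all 6 libraries, so a ratio of Smg8 to Smg9 could not be formed.

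Of the factors that act on phosphorylated UPF1, the endonuclease Smg6 was listed at 0.771, 0.518 and 0.574 FPKM in WT and at 0.445, 1.44 and 0.921 FPKM in Lsm14b-KO libraries. Lsm14b-KO replicates 2 and 3 were above the WT libraries and replicate 1 was below them, which was the same placement as for Upf1. Smg6 was tested only because Lsm14b-KO replicate 2 exceeded 1 FPKM, and its log2 fold change of 0.23 (SE 0.24, 95% interval -0.33 to 0.78, adjusted p = 0.488 in limma) turned to -0.024 after correction for transcript length and GC content. Smg5 was listed at 0, 0.105 and 0 FPKM in WT and at 0, 0 and 0.0553 FPKM in Lsm14b-KO libraries, that is, an estimated 1.93 and 1.91 fragments in the libraries where it was above 0. Any change in Smg5 was not detectable at this depth.

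Because FPKM moves with the total of a library, the balance between members was also described within libraries, with ratios that do not depend on that total. The pairs were chosen after their values were seen, so no test was run on them. The ratio of Upf1 to Upf2 was 0.361, 0.557 and 1.23 in WT and 0.328, 3.64 and 3.76 in Lsm14b-KO libraries, which puts Upf1 above Upf2 in Lsm14b-KO replicates 2 and 3 and in WT replicate 3. The ratio of Smg8 to Upf2 was 0.218, 0.201 and 0.434 in WT and 0.592, 1.89 and 0.844 in Lsm14b-KO libraries, without overlap. The ratio of Upf3b to Upf2 was 0.425 to 0.479 in WT and 0.506, 0.911 and 0.790 in Lsm14b-KO libraries, also without overlap although neither gene was called. That of Smg6 to Smg8 was 0.365 to 0.646 in WT and 0.161 to 0.326 in Lsm14b-KO libraries, without overlap. Among single tested genes 45% had groups that did not overlap, and the share among gene pairs was not computed. The ratio of Smg8 to Smg1, the partner to its kinase, was 9.11, 5.19 and 7.04 in WT and 9.69, 10.8 and 8.88 in Lsm14b-KO libraries. Lsm14b-KO replicates 1 and 2 were above every WT library and replicate 3 was within the WT range. The size of this ratio rests on the length scaling of both genes. The summed FPKM of the 9 members was 12.2, 11.6 and 12.3 in WT and 12.2, 19.4 and 22.9 in Lsm14b-KO libraries, and the share of Upf1 in that sum was 16.2% to 36.2% in WT and 12.5%, 44.2% and 55.0% in Lsm14b-KO replicates 1, 2 and 3.

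**Figure D4:**
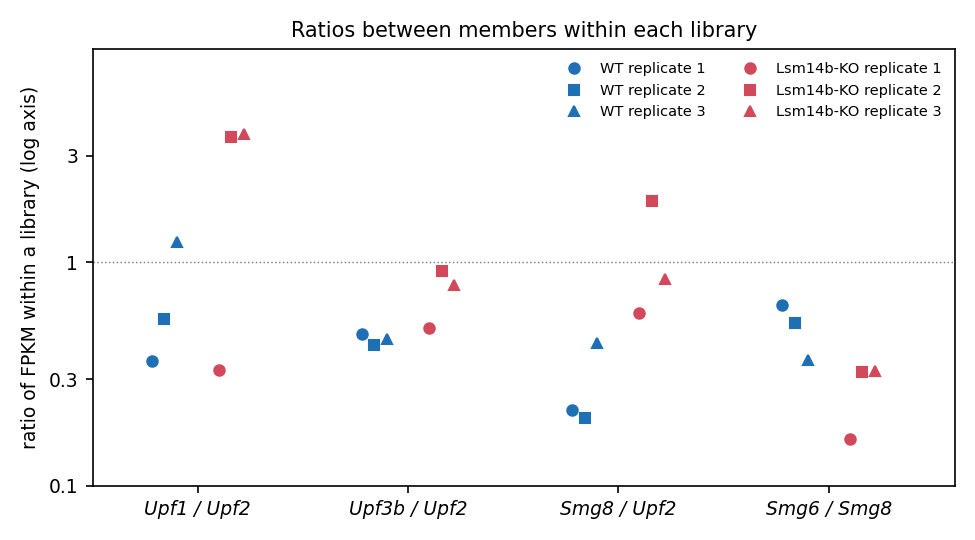
Ratio of the FPKM of 2 NMD factor genes within each of the 6 libraries, on a logarithmic axis; each point is 1 library and the dotted line marks a ratio of 1. The Smg8 to Upf2 and Upf3b to Upf2 ratios are higher in each Lsm14b-KO library than in each WT library. The Smg6 to Smg8 ratio (0.365 to 0.646 in WT, 0.161 to 0.326 in Lsm14b-KO) is lower. The Upf1 to Upf2 ratio of Lsm14b-KO replicate 1 (0.328) is the lowest of the 6. Each plotted pair holds Upf2 or Smg8, so the pairs are not independent. The Smg8 to Smg1 ratio, whose groups overlap, is not plotted.

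The members shared several features that the choice by symbol did not use. In GENCODE vM21 (GRCm38, mm10), all 9 are protein coding, and their transcripts had a median length of 4448 nt and 19 exons, against 2259 nt and 7 exons for the 6318 tested genes with a matched transcript. All 9 were longer than 2 kb, as were 55.9% of these tested genes. The 9 include the 4 members that were not tested, and the median length is that of Smg5, which is among the 4. Transcript length moved with the genotype difference over all genes: the median log2 fold change was -0.62 in 952 genes under 1 kb, -0.31 in 1833 genes of 1 to 2 kb, 0.02 in 1299 genes of 2 to 3 kb and 0.27 in 2234 genes over 3 kb, where 64.9% were fitted higher in Lsm14b-KO. Upf1, Upf2, Smg6 and Smg8 belong to the last class and Upf3b to the class before it. After correction for length and GC content, and relative to the median of all genes, the log2 fold change was 0.73 for Smg8, 0.51 for Upf1, 0.27 for Upf3b, -0.13 for Smg6 and -0.61 for Upf2, and Smg8 remained called. The part of length in the remaining differences was not tested.

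The position of the members in the genome (GRCm38) was chr8:70331525-70353278 on the minus strand for Upf1, chr2:5951469-6056703 on the plus strand for Upf2, chr8:13785615-13799193 on the plus strand for Upf3a and chrX:37091678-37110322 on the minus strand for Upf3b. The kinase gene Smg1 lies at chr7:118131308-118243670 on the minus strand, Smg8 at chr11:87077732-87086774 on the minus strand and Smg9 at chr7:24399619-24422778 on the plus strand. Smg5 lies at chr3:88336260-88362338 and Smg6 at chr11:74925823-75164448, both on the plus strand. Smg8 is the most compact, with 4 exons and a 3′ UTR of 221 nt, whereas Smg1 has 63 exons and a 3′ UTR of 4233 nt. No other annotated transcript matched a member at 95% identity over 200 nt. Smg8 overlaps a pseudogene on the opposite strand (Gm9378) by 471 nt, and Upf1 overlaps Cers1 and Gdf1 on the opposite strand by 68 and 63 nt. Smg1 overlaps Gm45084 on the same strand by 1957 nt and a snoRNA gene on the opposite strand, and Smg6 overlaps 6 genes on the opposite strand, the longest Gm12333 by 2873 nt and Gm28180 by 722 nt. Without stated strandedness reads of overlapping pairs cannot be told apart. For Upf1, Cers1 was listed at 0 in every library and Gdf1 at 0 in all except Lsm14b-KO replicate 2 (0.115 FPKM).

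Genes whose libraries followed the pattern of Upf1 or Smg8 most closely were picked by the smallest root mean square distance between log2(FPKM + 1) deviations from the WT mean over the 6 libraries, among genes with a mean of at least 5 FPKM. Nearest to Upf1 were Tgfb2, a growth factor (distance 0.21), Dnttip2, a nucleolar factor (0.26), and Ncl, nucleolin (0.26). Tgfb2, for example, was listed at 20.4, 23.0 and 36.2 FPKM in WT and at 18.4, 84.4 and 76.1 FPKM in Lsm14b-KO libraries, again low in Lsm14b-KO replicate 1. Nearest to Smg8 were Kit, the receptor tyrosine kinase of the oocyte surface (0.087), Kif4, a chromosome-binding kinesin (0.11), and Paics, an enzyme of purine synthesis (0.11). Kit was listed at 4.20, 3.46 and 4.58 FPKM in WT and at 7.26, 10.6 and 6.73 FPKM in Lsm14b-KO libraries, with Lsm14b-KO replicate 2 the highest as for Smg8. Since likeness to Smg8 fixes their direction, the differences of these genes are given only as a description.

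Companion factors of the pathway were taken from 3 lists. For comparison, 45% of all 6398 tested genes had groups that did not overlap. In the exon junction complex, the mark that NMD reads downstream of a stop codon, 6 of 7 genes were tested, and 2 passed the threshold in limma, both lower (15.2% of all tested genes were called lower). The 6 had a median log2 fold change of -0.88, beside -0.08 over all tested genes. It was -0.25 after the length and GC correction and -0.30 with scaling to the same FPKM sum, beside 0.10 and 0.40 over all tested genes. Under quantile normalization it was -0.50 and without Lsm14b-KO replicate 2 it was -0.53, beside 0.07 and -0.07. Fitted higher without passing were Rnps1 (log2 fold change 0.76, adjusted p = 0.138 in limma) and Eif4a3 (0.22, adjusted p = 0.614). Magohb, 1 of the 2 genes of the core subunit MAGO, was listed at 53.7, 48.2 and 45.99 FPKM in WT and at 24.0, 3.66 and 9.82 FPKM in Lsm14b-KO libraries, and each Lsm14b-KO library was below each WT library (log2 fold change -2.22, SE 0.55, adjusted p = 0.0277 in limma). Rbm8a, which encodes the partner Y14 of MAGO, was listed at 4.94, 5.17 and 4.58 FPKM in WT and at 1.37, 1.49 and 1.97 FPKM in Lsm14b-KO libraries, a narrow spread with all Lsm14b-KO values low (log2 fold change -1.18, SE 0.19, adjusted p = 0.00668 in limma). Magoh, the far more abundant paralog of Magohb, was listed at 437, 441 and 416 FPKM in WT and at 390, 89.5 and 184 FPKM in Lsm14b-KO libraries and did not pass (log2 fold change -1.21, SE 0.51, adjusted p = 0.116 in limma), except without Lsm14b-KO replicate 1 (-1.74, adjusted p = 0.00200). Wibg, an older symbol of Pym1, whose product takes the complex apart, was at -0.58 (SE 0.29, adjusted p = 0.172 in limma).

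Magohb and Magoh transcripts are short, at 897 and 692 nt, the class in which most genes were fitted lower, and after the length and GC correction their log2 fold changes were -1.43 and -0.31. The call of Rbm8a, of 2608 nt, was kept in every alternative except scaling to the same FPKM sum (log2 fold change -0.67, adjusted p = 0.106 in limma), and that of Magohb was lost under quantile normalization (0.0511), without the minimum level (0.0733), without any 1 of the WT libraries (0.0818 to 0.0982) and without Lsm14b-KO replicate 3 (0.103). The near-identical Gm44958, which overlaps Magohb in the genome and is not shown to be a separate copy, could take part of the Magohb reads. Rbm8a2, a near-identical copy, could take part of the Rbm8a reads. The same holds for the genes fitted higher, with Gm9825 for Rnps1 and Gm5576, Gm5580 and Gm8994 for Eif4a3.

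**Figure D5:**
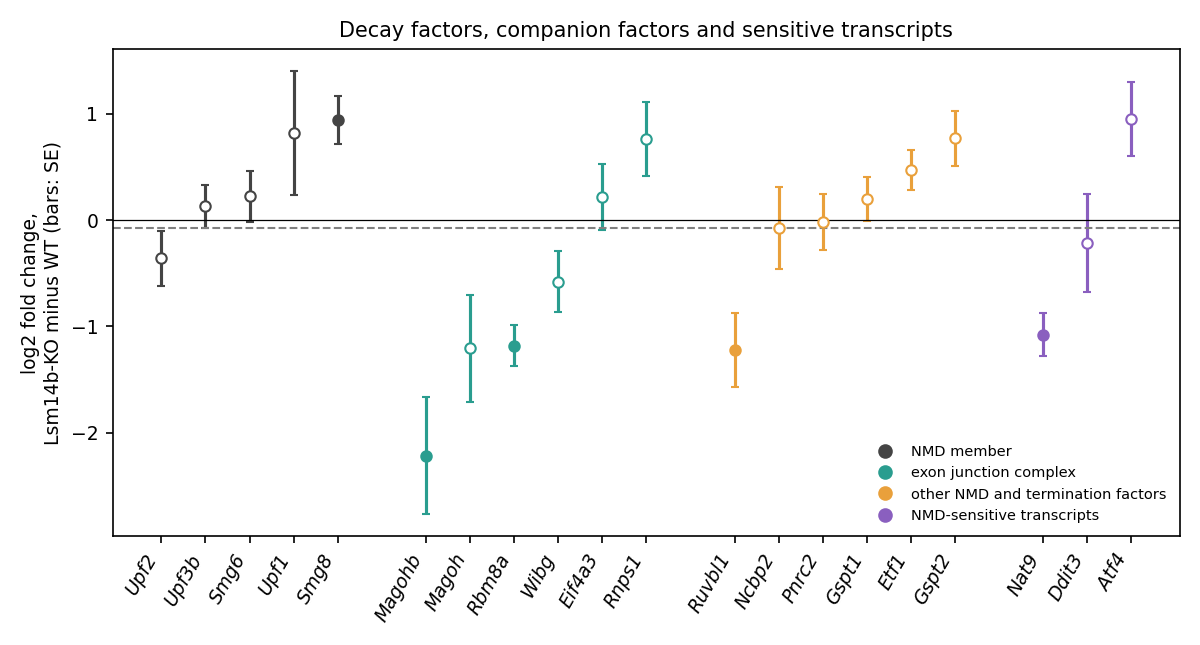
Fitted log2 fold change (Lsm14b-KO minus WT, log2(FPKM + 1) scale; bars are the SE) of the tested NMD factor genes and of the tested genes of 3 companion lists; filled points have an adjusted p under 0.05 in limma and the dashed line is the median of all tested genes (-0.08). Magohb, Rbm8a, Ruvbl1 and Nat9 are the called companions and lie at or below -1.08, whereas Smg8, the called NMD factor, lies at 0.94.

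Among 13 other NMD and translation termination factors, 6 were tested and 1 passed, while 21.6% of all tested genes passed and 15.2% were called lower. The gene that passed was Ruvbl1, which encodes an ATPase that binds SMG1-related kinases. It was lower, at 3.26, 5.53 and 4.37 FPKM in WT and 2.71, 0.465 and 1.16 FPKM in Lsm14b-KO libraries (log2 fold change -1.22, SE 0.35, adjusted p = 0.0426 in limma), with no overlap. The call was lost without any single library except Lsm14b-KO replicate 1 (adjusted p 0.0862 to 0.139 in limma) and under 7 of the other 9 alternatives, and a near-identical copy, Gm5837, is annotated. The median of the 6 genes was 0.09, and -0.02 to 0.51 over the alternatives. The 0.51 came with scaling to the same FPKM sum, where the median of all tested genes was 0.40. Gspt2, a release factor GTPase, was listed at 5.90, 5.96 and 7.47 FPKM in WT and 8.69, 14.4 and 12.5 FPKM in Lsm14b-KO libraries, without overlap but short of the threshold (log2 fold change 0.77, SE 0.26, adjusted p = 0.0664 in limma). It passed under scaling to the same sum, quantile normalization, the length and GC correction and without Lsm14b-KO replicate 1, with adjusted p of 0.0419, 0.0394, 0.0466 and 0.00625. Ncbp2, of the cap-binding complex, was at -0.07 (SE 0.39, adjusted p = 0.895 in limma). Ncbp2 overlaps Senp5, and without stated strandedness the reads of the pair cannot be told apart. The remaining 7 genes did not reach 1 FPKM in any library.

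Transcripts described in other mammalian cells as NMD-sensitive were mostly below the level that could be tested. Of 14 such genes 3 were tested, and 1 passed, Nat9, an acetyltransferase gene, which was lower. Over all tested genes 21.6% passed, and 15.2% were called lower. The median log2 fold change of the 3 NMD-sensitive genes was -0.21, the value of Ddit3, and its direction turned with scaling. Nat9 was listed at 4.40, 3.05 and 3.93 FPKM in WT and at 1.52, 1.20 and 1.06 FPKM in Lsm14b-KO libraries, without overlap (log2 fold change -1.08, SE 0.20, adjusted p = 0.0119 in limma). Its call was lost under scaling to the same sum (0.0958), without WT replicate 1 (0.0572) and without Lsm14b-KO replicate 3 (0.0664). Nat9 overlaps Tmem104, and Ddit3 overlaps Mars, Gm4189 and another entry of its own symbol. Without stated strandedness the reads of such pairs cannot be told apart. Atf4, a stress-response transcription factor, was listed at 2.58, 3.92 and 2.89 FPKM in WT and at 4.33, 12.3 and 5.97 FPKM in Lsm14b-KO libraries, all above WT, but did not pass (log2 fold change 0.95, SE 0.35, adjusted p = 0.0849 in limma). It passed without Lsm14b-KO replicate 1 (0.00987) and with the replicate number as a block (0.0479). Ddit3, a target of ATF4 and the most abundant gene of the list, was listed at 429, 429 and 418 FPKM in WT and at 729, 200 and 339 FPKM in Lsm14b-KO libraries, which lay on both sides of WT (log2 fold change -0.21, SE 0.46, adjusted p = 0.743 in limma). It was fitted at 0.48 with scaling to the same FPKM sum, at 0.57 under quantile normalization, at 0.34 after the length and GC correction and at 0.22 without Lsm14b-KO replicate 2, none of which passed, and it passed as lower without Lsm14b-KO replicate 1 (-0.71, adjusted p = 0.0498 in limma). The other 11 genes were below 1 FPKM everywhere, and 4 of them, including Cdkn1a and Snhg1, were listed at 0 in every library. The annotation counts 1 transcript of the NMD biotype each in Smg1, Smg5 and Smg6, which these gene-level values do not separate from the coding ones.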

How the data were processed

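RNA-Seq values of 3 WT and 3 Lsm14b-KO libraries of GV-stage FGOs were used, grouped by title and genotype label. Per the labels, reads were trimmed and aligned to mm10 by TopHat2 (2.0.13), and the authors computed the deposited FPKM values with Cufflinks (2.2.1), 1 column per library without pooling. The annotation and strandedness are not given in the sources used here, and the labels name 2 different library kits. The deposited table also holds the authors' fold change, p-value and q-value of Cuffdiff, which were not used. It holds no counts, so depth was estimated from the lowest FPKM values times transcript length. Amplified fragments are not independent molecules.

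Genes that reached 1 FPKM in any library were tested on log2(FPKM + 1) with limma 3.58.1 in R 4.3.3 (eBayes with an intensity trend, genotype as the only term, two-sided, Benjamini-Hochberg over all 6398 tested genes, threshold 0.05). The fit was also run on simulated data with independent noise in each gene and library. Such data hold no shift of 1 library over many genes, so they do not test the fit under one. Lengths, UTRs and overlaps came from GENCODE vM21, matched for 6318 tested genes, and copies from blastn 2.17.0. Alternatives were other pseudocounts, filters and scalings, a loess correction for length and GC content in each library, no trend, a replicate block, and the omission of each library. Leaving out a library repeats the filter and leaves 2 libraries in its group.

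The members and the companion and marker lists were chosen with earlier results of these data known. Named were the 9 members, each companion gene past the threshold, the 2 other tested genes of each companion list with the highest mean FPKM, Lsm14b, and the 3 genes most like Upf1 and most like the tested member with the largest change, Smg8. Rnps1, Eif4a3, Amh, Foxl2, Cyp19a1, Fshr, Inha, Cdkn1a and Snhg1 were named after their values were seen, as were the oocyte markers.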

Additional observations from a re-analysis of the deposited data

How the results depend on the processing

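All 5 tested members were refitted under 15 alternatives, of which 2 gave no value for Smg6, which then missed the minimum level. The count of all genes called was 1383 as reported, 720 without the minimum level and 321 to 2952 when 1 library was left out (408, 426 and 537 without WT replicates 1, 2 and 3, and 2952, 915 and 321 without Lsm14b-KO replicates 1, 2 and 3). The count of members called was 0 without the minimum level and 0 to 2 with 1 library left out, 2 (Upf1 and Smg8) only without Lsm14b-KO replicate 1. Smg8 kept its log2 fold change of 0.94 without the minimum level, with an adjusted p of 0.0658 in limma. Over the omissions its log2 fold change was 0.76 to 1.04, that of Upf1 0.33 to 1.54, that of Upf2 -0.55 to -0.17, that of Upf3b 0.02 to 0.25 and that of Smg6 0.18 to 0.42. Upf2 changed direction to 0.19 under scaling to a common FPKM sum (adjusted p 0.573) and Smg6 to -0.024 after the length and GC correction (0.936). The difference in the Upf3b to Upf3a log2 ratio was -0.014 to 0.35 over the omissions, the lowest without WT replicate 3. With 1 FPKM added to both genes, that ratio mostly repeats Upf3b. The fits without a library hold fewer samples and the fit without the minimum level tests more genes; the cause of the other changes was not tested. Over all alternatives the adjusted p was 0.00814 to 0.102 for Smg8, 0.00323 to 0.709 for Upf1, 0.0840 to 0.651 for Upf2 and 0.113 to 0.952 for Upf3b.

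Scaling to the same sum raised the median of all genes by 0.48 and the share of higher among all calls from 29.5% to 63.2%; quantile normalization raised them by 0.14 and to 42.4%, and the length and GC correction by 0.18 and to 45.1%. Smg8 was above the median under each of them, by 1.04, 0.93 and 0.73.

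The replicate numbers were not shown to pair the libraries: the deviations of same-numbered libraries correlated at 0.19, -0.13 and 0.02 over the tested genes, and WT replicate 3 correlated best with Lsm14b-KO replicate 2 (0.31). With the replicate number as a block, 1244 genes and 1 member were called, Smg8 stayed at 0.94 (adjusted p 0.0436), and Ruvbl1 no longer passed (0.0560).

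The ratio of Smg8 to Smg9 and its alternatives, and the ratio of Upf3b to Upf3a without an added 1 FPKM, were not run because of listed zeros. Levels near 1 FPKM rest on few fragments, which limits Smg1, Smg5, Smg6, Smg9 and Upf3a most.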
